A study of Homo sapiens with 3 samples.

Results

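The genes described here encode the subunits of the Polycomb complexes PRC1 and PRC2 and of the deubiquitinase PR-DUB. They were taken as a list of 34 gene names, and all 34 were found among the 57736 gene rows of the count table. Of them, 33 were matched by the symbol in the table. BMI1 was matched through its gene ID (ENSG00000168283), because the table gives that row the name of the read-through COMMD3-BMI1. The list holds 9 genes of PRC2, 22 of PRC1 and 3 of PR-DUB.

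Polycomb proteins keep developmental genes silent through marks on histone tails. PRC2 methylates lysine 27 of histone H3, through the catalytic subunit EZH2 or EZH1 together with EED and SUZ12. PRC1 attaches ubiquitin to histone H2A through the ligase RNF2 or RING1, in complexes that differ in their PCGF subunit. PR-DUB, formed by BAP1 with an ASXL protein, removes that ubiquitin. In ovarian clear cell carcinoma, loss of the SWI/SNF subunit ARID1A is known to make cells depend on EZH2.

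Total RNA was sequenced from TOV21G, a cell line of human ovarian clear cell carcinoma whose ARID1A gene is mutated, so that every library shares this defect. Knockdown cells carried a lentiviral short hairpin RNA against HDAC2, a class I histone deacetylase (n = 2, 1 library for each of the hairpins shRNA 1 and shRNA 2), and were set against wild-type cells (WT, n = 1). The labels do not say whether WT cells received a control virus, so depletion of HDAC2 and transduction cannot be told apart. Nothing says that the libraries come from repeated cultures, so p-values rest on the spread of the hairpin libraries alone, which may be technical, and take the single WT library to vary by as much. A lower level in bulk RNA can come from fewer expressing cells or from less RNA per cell, which cannot be told apart.

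The libraries held 10138479 to 11398791 counts, and 14524 genes, all 34 Polycomb genes among them, passed the filter on low counts. HDAC2 itself stood at 31.7% of the WT level with shRNA 1 and at 48.9% with shRNA 2 (33.4 and 51.5 CPM, counts scaled to a common library size, against 105.3 CPM in WT). The Müllerian lineage marker PAX8 had 1969 counts or more in each library, whereas the clear cell marker NAPSA had 1 to 4 counts. Of the pluripotency genes, LIN28A had 224 to 284 counts, POU5F1 38 to 49 and DPPA4 1 to 3. POU5F1 is uncertain because 20.2% of its read-length sequences are shared, chiefly with POU5F1B. The leukocyte gene PTPRC had at most 2 counts and the endothelial gene CDH5 at most 9. Of the 17 markers found, 9 were tested and 0 passed with edgeR, 2 of them (LIN28A and ARID1A) at an unadjusted p below 0.05. The summed level of the 17 markers was 1033 and 953.9 CPM with shRNA 1 and shRNA 2, against 1120 CPM in WT.

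Of the 34 Polycomb genes, 2 fell and 1 rose in HDAC2 knockdown cells, and 31 did not pass the test (an adjusted p below 0.05 over all genes, by the quasi-likelihood test of edgeR). PHF19, a cofactor of PRC2, and PCGF2, a subunit of PRC1, fell, and BMI1, the paralog of PCGF2, rose. The background over all 14524 genes was 7.72%, with 3.96% higher and 3.76% lower. The 3 called genes are 8.82% of the list, near that background, so the number of calls is not particular to Polycomb genes. The median log2 change was −0.06 over the list and 0.01 over all genes tested. The calls end for all 3 genes with a trend in GC content removed or with no filter on low counts. Those of PCGF2 and BMI1 end with DESeq2's Wald test. That of BMI1 also ends with its row summed with those of the read-through COMMD3-BMI1 and of COMMD3.

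The side of the changes can also be read by library. In 13 of the 34 genes both hairpin libraries lay above WT, in 16 both lay below it, and in 5 they lay on either side. The background of genes whose hairpin libraries did not overlap WT was 79.1%, with 39.9% above and 39.3% below, against 85.3% of the list. Both directions were found among the genes of PRC2 and of PRC1.

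**Figure D1:**
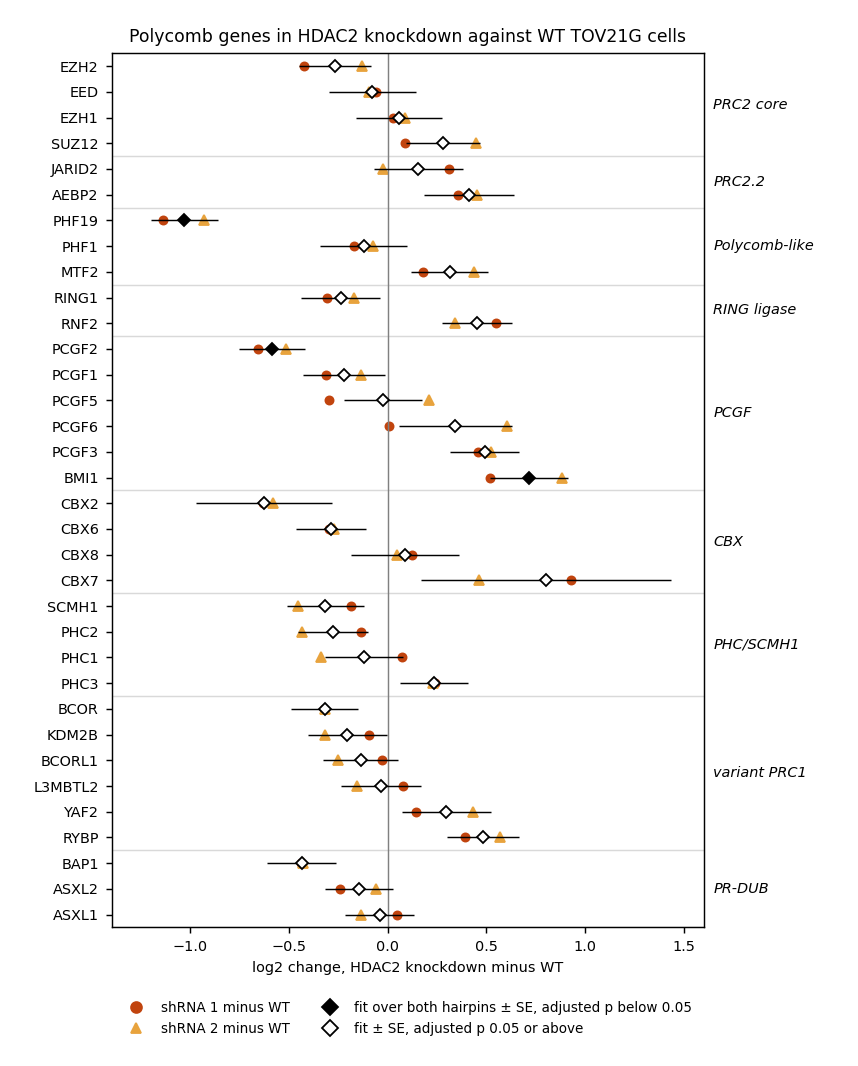
The log2 change of each of the 34 Polycomb genes in HDAC2 knockdown minus WT, grouped by role. Circles and triangles are shRNA 1 and shRNA 2 against WT, and diamonds are the fit over both hairpins with its standard error, filled where the adjusted p is below 0.05. PHF19 lies farthest to the left at −1.03, and BMI1 and PCGF2 are the other filled diamonds.

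The core of PRC2 did not pass the test. EZH2, the main methyltransferase of dividing cells, had 40.7 and 49.9 CPM with shRNA 1 and shRNA 2, against 54.6 CPM in WT. In both knockdown libraries the level was below WT, in shRNA 1 more so. The log2 change was −0.27 ± 0.18 (SE; 95% interval −0.65 to 0.11; edgeR adjusted p = 0.399).

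EED, which binds trimethylated lysine 27 and activates the enzyme, had 14.1 and 13.8 CPM in the knockdown libraries, against 14.7 CPM in WT. The 3 libraries lay close together, at a log2 change of −0.08 ± 0.22 (SE). SUZ12, the scaffold subunit, had 65.0 and 83.3 CPM with shRNA 1 and shRNA 2, against 61.1 CPM in WT. It was above WT by more with shRNA 2 than with shRNA 1, and the log2 change over both was 0.28 ± 0.19 (SE; edgeR adjusted p = 0.392).

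EZH1, the methyltransferase that prevails in resting cells, had 16.6 and 17.2 CPM, against 16.2 CPM in WT, a log2 change of 0.06 ± 0.22 (SE). Per kilobase of the longest annotated transcript, the level of EZH2 was 3.12 and 3.68 times that of EZH1 with shRNA 1 and shRNA 2, against 4.27 times in WT. The ratio was therefore lower in both knockdown libraries, while neither gene passed the test. EZH2 stayed the more abundant of the paralogs in each library.

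The Polycomb-like cofactors of PRC2.1, which bind trimethylated lysine 36 of histone H3 and DNA, lay on both sides of WT. PHF19 (ENSG00000119403) lies on chromosome 9 between 120855652 and 120894896, minus strand, in GRCh38. It had 846 and 965 counts with shRNA 1 and shRNA 2, against 1622 counts in WT, or 73.7 and 85.2 CPM against 162.5 CPM. Both knockdown libraries were far below WT and close to each other. The knockdown level was 48.9% ± 5.01 of WT (SD, n = 2), a log2 change of −1.03 ± 0.17 (SE; 95% interval −1.38 to −0.68) with an edgeR adjusted p of 8.85e-04.

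MTF2, the second Polycomb-like gene, had 33.5 and 40.0 CPM in the knockdown libraries, against 29.6 CPM in WT. PHF1, the third, had 13.7 and 14.7 CPM, against 15.4 CPM in WT. MTF2 stood at 0.31 ± 0.20 (SE) and PHF1 at −0.12 ± 0.22 (SE) on the log2 scale, and neither passed. PHF1 overlaps CUTA on the opposite strand, which had 6634 counts over the libraries, and no source used here says whether strand was counted.

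Within this family the balance differed between the groups. PHF19 made up 55.4% and 55.7% of the family's level per kilobase with shRNA 1 and shRNA 2, against 73.5% in WT. MTF2 made up 25.9% and 26.9%, against 13.7% in WT. The ratio of PHF19 to MTF2 was 2.14 and 2.07, against 5.35 in WT. Such a ratio within a library does not depend on the scaling between libraries, and it has no test here. It does move with GC content, which is 57.9% in PHF19 and 37.9% in MTF2: the difference of their log2 changes was −1.35 as fitted and −0.76 with the GC trend of all genes removed. Against PHF1, whose GC content of 59.9% is near that of PHF19, the difference was −0.91 as fitted and −0.94 with the trend removed. PHF19 remained the most abundant of the 3 genes per kilobase in each library.

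**Figure D2:**
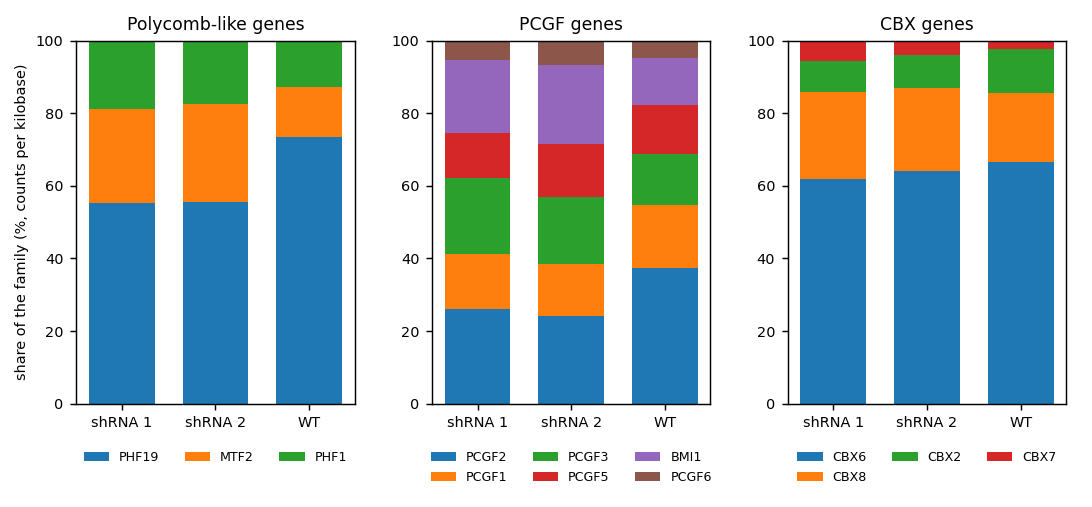
The share (%) of each gene in the summed level per kilobase of its family, for the Polycomb-like, PCGF and CBX genes, in shRNA 1, shRNA 2 and WT libraries. PHF19 takes 55.4% and 55.7% with the hairpins against 73.5% in WT, and PCGF2 takes 26.0% and 24.1% against 37.5%.

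The cofactors of the alternative form PRC2.2 were JARID2 and AEBP2. AEBP2, a zinc finger protein that stimulates the enzyme, had 14.5 and 15.5 CPM, against 11.3 CPM in WT, and its log2 change of 0.41 ± 0.23 (SE) did not pass. JARID2, which helps to recruit PRC2, had 20.6 CPM with shRNA 1 and 16.2 CPM with shRNA 2, against 16.5 CPM in WT, so that the hairpins lay on either side of WT.

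PRC2 genes were also compared in the DNA at their starts. Windows from 250 bases before to 50 bases after annotated starts were at hand for 31 of the 34 genes, all 9 PRC2 genes included (RefSeq, GRCh38.p14). The words TTTCCCGC, TTTCGCGC, TTTGCCGC and TTTGGCGC, forms of the site of the E2F factors that drive S-phase genes, were searched on both strands. They stood in windows of 6 genes, all of them in PRC2. Of all 35116 windows 3.31% held such a word, and of the 10634 tested genes with a window 6.70% did. The 30 bases around each match are shown to let the words be compared, 5′ to 3′ on the strand of the gene, with the word in capitals:
EZH1 (chr17:42745137-42745166, minus strand): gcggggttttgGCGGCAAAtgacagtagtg
EZH2 (chr7:148884272-148884301, minus strand): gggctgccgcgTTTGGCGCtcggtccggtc
SUZ12 (chr17:31936807-31936836, plus strand): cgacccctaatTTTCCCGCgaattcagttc
AEBP2 (chr12:19440438-19440467, plus strand): caaggcgacgtTTTGCCGCgatccccctgc
MTF2 (chr1:93079277-93079306, plus strand): accggcagtccGCGGGAAAccaaaatggcg
PHF19 (chr9:120877322-120877351, minus strand): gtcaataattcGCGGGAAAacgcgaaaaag

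The matches began 115 bases before the start of EZH1, 189 before that of SUZ12, 150 before that of AEBP2 and 152 before that of PHF19. Those of EZH2 and MTF2 began 1 and 5 bases after the start. MTF2, SUZ12 and PHF19 carry the same word, on the opposite strand in MTF2 and PHF19, and of the 6 genes PHF19 was the one that passed the test. A match is a description of letters and does not show binding. PHF19, the member with the largest fall, has 2 annotated windows. The 250 bases before the start in the one with the match, on the minus strand at chr9:120877189-120877438, were:
PHF19: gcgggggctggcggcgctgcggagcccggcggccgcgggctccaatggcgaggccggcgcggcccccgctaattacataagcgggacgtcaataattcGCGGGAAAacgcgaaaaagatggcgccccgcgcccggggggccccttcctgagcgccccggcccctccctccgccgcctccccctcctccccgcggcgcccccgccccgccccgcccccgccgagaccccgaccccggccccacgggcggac

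The other words searched were TTTGAA (the cell cycle element CHR), CCAAT, CCGGAAGT (ETS factors) and the sites of NRF1 and YY1, again on both strands. CHR was found in 6 of the 31 genes, SUZ12 the single PRC2 gene among them, against 13.6% of tested genes. CCAAT was found in 13 of the 31, against 43.4% of tested genes, NRF1 in 1, against 2.75%, ETS in 1, against 10.00%, and YY1 in 0, against 2.36%. These words may overlap each other.

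A list of genes of replication and mitosis, chosen with their fall already known, is given beside PHF19. Of 30 tested, 24 fell (80.0%, against 3.76% of all genes tested) and 0 rose, with a median log2 change of −0.90. In 29 both hairpin libraries were below WT, against 39.3% of all genes as the share below. CDK1 is among the 29 with shRNA 2 at 99.99% of WT. The summed level of the 30 genes was 3032 and 3621 CPM with shRNA 1 and shRNA 2, against 6074 CPM in WT. EZH2, EED and SUZ12, known as E2F-dependent genes, did not pass, which does not show that they were unchanged. EED held none of the E2F words searched in its window. With the GC trend removed EZH2, EED and SUZ12 stood at −0.43, −0.57 and −0.05. The part of the fall of the 30 genes in the change of PHF19 was not tested.

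The ligase subunits of PRC1 were RNF2 and RING1. RNF2, also called RING1B, had 87.5 and 75.8 CPM with shRNA 1 and shRNA 2, against 59.7 CPM in WT. In both knockdown libraries the level was above WT, and the log2 change was 0.45 ± 0.18 (SE; 95% interval 0.08 to 0.82), which did not pass over all genes (edgeR adjusted p = 0.128). RING1 had 22.0 and 24.3 CPM, against 27.4 CPM in WT, with both below WT at −0.24 ± 0.20 (SE). Per kilobase, RNF2 was at 1.93 and 1.52 times the level of RING1, against 1.06 times in WT. These genes lie far apart in GC content, at 38.1% and 61.6%, and the difference of their log2 changes, 0.69 as fitted, was 0.06 with the GC trend of all genes removed.

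The PCGF subunits decide which PRC1 is formed, and here 2 of the 6 passed the test, in opposite directions. PCGF2 (MEL18), of canonical PRC1, lies on chromosome 17 between 38733897 and 38749817, minus strand, in GRCh38. On the opposite strand it overlaps CISD3, whose counts were not matched, and no source used here says whether strand was counted. PCGF2 had 647 and 705 counts with shRNA 1 and shRNA 2, against 890 counts in WT, or 56.4 and 62.3 CPM against 89.2 CPM. Both knockdown libraries were below WT, at 66.5% ± 4.67 of its level (SD, n = 2). The log2 change was −0.59 ± 0.17 (SE; 95% interval −0.94 to −0.24; edgeR adjusted p = 0.0366).

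BMI1 (PCGF4), the other PCGF of canonical PRC1 and a repressor of the CDKN2A locus, lies on chromosome 10 between 22321211 and 22331484, plus strand, in GRCh38. It had 561 and 714 counts with shRNA 1 and shRNA 2, against 340 counts in WT, or 48.9 and 63.1 CPM against 34.1 CPM. Both were above WT, and shRNA 2 more so, for a knockdown level of 164% ± 29.4 of WT (SD, n = 2). The log2 change was 0.72 ± 0.20 (SE; 95% interval 0.30 to 1.13; edgeR adjusted p = 0.0309).

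The rise of BMI1 is uncertain because 20.5% of the read-length sequences in its row also occur elsewhere, chiefly in the read-through COMMD3-BMI1. That read-through had 151 and 136 counts with shRNA 1 and shRNA 2, against 172 counts in WT, on the other side of WT from BMI1. BMI1 and the read-through together had 712 and 850 counts, against 512 in WT, or 62.0 and 75.1 CPM against 51.3 CPM, without a test. COMMD3, the neighbouring gene, had 277 and 323 counts, against 150 counts in WT. It rose by itself, at a log2 change of 0.81 ± 0.22 (SE; edgeR adjusted p = 0.0299). With the 3 rows summed, COMMD3 included, the counts were 989 and 1173, against 662 in WT. The log2 change of the sum was 0.52 ± 0.18 (SE) and did not pass (edgeR adjusted p = 0.0847).

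Per kilobase, PCGF2 was at 1.29 and 1.10 times the level of BMI1 with shRNA 1 and shRNA 2, against 2.93 times in WT, a ratio that carries the uncertainty of the BMI1 row. The difference of their log2 changes was −1.30 as fitted and −0.77 with the GC trend removed. PCGF2 made up 26.0% and 24.1% of the PCGF family, against 37.5% in WT, and BMI1 made up 20.2% and 21.8%, against 12.8% in WT. PCGF2 was the highest of the 6 genes per kilobase in each library. In WT the next was PCGF1, at 13.5 CPM per kilobase against 29.1 for PCGF2, whereas in the knockdown libraries PCGF1 was below both BMI1 and PCGF3.

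None of the 4 variant PCGF genes passed the test. PCGF3, of a variant PRC1 that acts in X chromosome silencing in mouse, had 84.1 and 88.0 CPM, against 61.2 CPM in WT. The knockdown libraries were both above WT and close together, at a log2 change of 0.49 ± 0.17 (SE; 95% interval 0.13 to 0.86; edgeR adjusted p = 0.0895). PCGF5, its close paralog, had 61.9 CPM with shRNA 1 and 87.9 CPM with shRNA 2, against 76.1 CPM in WT. The hairpins thus lay on either side of WT.

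PCGF1, of the BCOR complex, stood at −0.22 ± 0.21 (SE). PCGF6, of the complex with E2F6 and MGA, had 8.36 CPM with shRNA 1, nearly at the 8.32 CPM of WT, and 12.7 CPM with shRNA 2. Its log2 change of 0.34 ± 0.29 (SE) did not pass, and shRNA 2 was the library above WT by more.

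**Figure D3:**
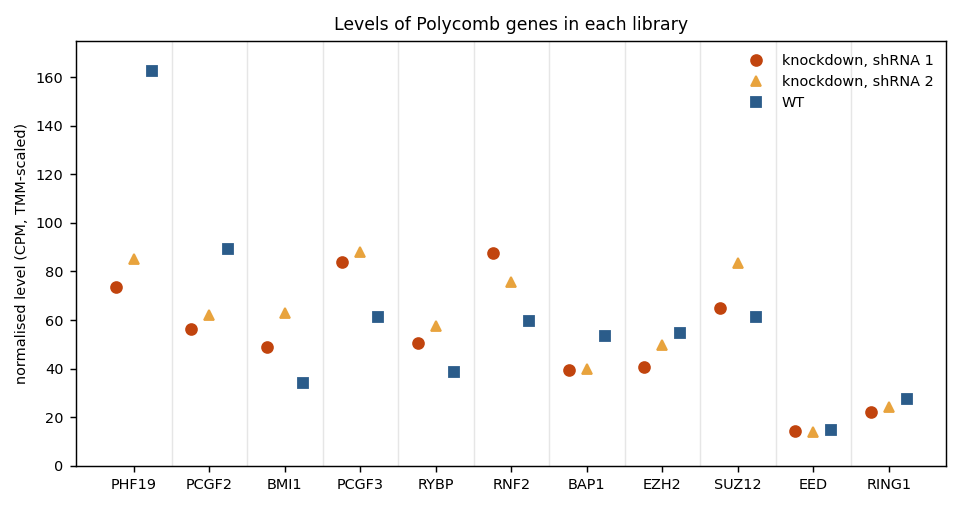
Normalised levels (CPM) in each library for the 3 called Polycomb genes and 8 others, with shRNA 1, shRNA 2 and WT from left to right within a gene. The WT square of PHF19 stands at 162.5 CPM, above 73.7 and 85.2 CPM with the hairpins, and the points of EED nearly coincide.

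The CBX genes encode the chromodomain proteins that read trimethylated lysine 27, and 0 of the 4 passed (0 also at an unadjusted p below 0.05). CBX6 was the highest per kilobase in each library and stood at −0.29 ± 0.18 (SE). CBX8 stood at 0.09 ± 0.27 (SE). CBX2 had 46 and 47 counts with shRNA 1 and shRNA 2, against 63 counts in WT, at −0.63 ± 0.34 (SE).

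CBX7, which is known to repress the CDKN2A locus, had the largest positive estimate of the list and the fewest counts. It had 26 and 18 counts with shRNA 1 and shRNA 2, against 11 counts in WT. Its log2 change was 0.80 ± 0.63 (SE), with a 95% interval from −0.52 to 2.12, so a change was not detectable at this depth.

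The PHC and SCMH1 proteins carry SAM domains through which canonical PRC1 forms chains. PHC2 had 105.8 and 86.1 CPM, against 116.3 CPM in WT, at −0.28 ± 0.18 (SE). PHC3 had 77.1 and 76.4 CPM, against 65.2 CPM in WT, at 0.23 ± 0.17 (SE). SCMH1 stood at −0.32 ± 0.20 (SE). PHC1 had 42.5 CPM with shRNA 1 and 32.0 CPM with shRNA 2, against 40.5 CPM in WT, and is uncertain because 36.6% of its read-length sequences are shared, chiefly with PHC1P1. It also overlaps M6PR on the opposite strand. None of the 4 passed, and 0 had an unadjusted p below 0.05.

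In the variant complexes, RYBP, which takes the place of CBX proteins on the ligase, had 50.7 and 57.4 CPM, against 38.7 CPM in WT. Both knockdown libraries were above WT, at a log2 change of 0.48 ± 0.18 (SE; 95% interval 0.10 to 0.87; edgeR adjusted p = 0.114). Its paralog YAF2 stood at 0.30 ± 0.22 (SE). BCOR, the corepressor joined to PCGF1, had 122.4 and 122.9 CPM, against 153.2 CPM in WT, at −0.32 ± 0.17 (SE).

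The CpG island binder KDM2B, which overlaps RNF34 on the opposite strand, stood at −0.20 ± 0.20 (SE). BCORL1, the paralog of BCOR, stood at −0.14 ± 0.19 (SE), and L3MBTL2, of the complex with PCGF6, at −0.03 ± 0.20 (SE). Of these 6 variant PRC1 genes, RYBP alone had an unadjusted p below 0.05.

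In PR-DUB, BAP1, the catalytic subunit, had 39.4 and 39.7 CPM, against 53.5 CPM in WT. In both knockdown libraries the level was below WT at 73.9% ± 0.36 of its level (SD, n = 2), and the log2 change of −0.44 ± 0.18 (SE) did not pass (edgeR adjusted p = 0.134). ASXL2 stood at −0.15 ± 0.17 (SE) and ASXL1 at −0.04 ± 0.17 (SE), the hairpins lying on either side of WT for ASXL1.

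Taking unadjusted p-values below 0.05, 7 of the 34 genes passed (20.6%), 4 upwards and 3 downwards, against 23.5% of all genes tested, 12.4% upwards and 11.1% downwards. Besides the 3 called genes these were PCGF3, RYBP, RNF2 and BAP1. The hairpins differed from each other by a median of 0.19 on the log2 scale over the list, regardless of sign, as over all genes tested. PCGF6, PCGF5, CBX7, PHC1, BMI1, SUZ12 and JARID2 were the 7 genes with a difference over 0.3.

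The members also differ in base composition, and their changes went with it. The GC content of the longest transcript was lowest in EED and highest in RING1, at 61.6%. Of 13 genes with a GC content under 45%, both hairpin libraries were above WT in 9 (69.2%) and below in 3 (23.1%), against 63.7% above and 17.0% below among all tested genes under 45%. Of 21 genes at or above 45%, they were above in 4 (19.0%) and below in 13 (61.9%), against 24.9% above and 53.4% below among all tested genes at or above 45%. The split of the members by GC content was thus close to that of all genes. Across the 34 genes, which share their libraries and are not independent replicates, the log2 change had a Pearson r of −0.54 and a Spearman rho of −0.60 with GC content. Across the 14215 tested genes with a known GC content these were −0.32 and −0.48.

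PHF19 and PCGF2 are rich in GC, at 57.9% and 57.5%, and BMI1 is poor in it, at 39.1%. When the trend of all genes with GC content was taken out, 0 of the 34 genes passed with edgeR, against a background of 1.95%. An unadjusted p below 0.05 was then found for 7 of the 34, and for 2386 of all 14524 genes tested. The 7 were PHF19, EED, EZH2, PCGF5 and ASXL2 on the lower side and BMI1 and PCGF3 on the higher side. No other tool was run with that trend removed, and the part of GC content in the changes was not tested further. PHF19 then stood at −0.78 ± 0.16 (SE; adjusted p = 0.0528), PCGF2 at −0.35 ± 0.16 (SE; adjusted p = 0.317) and BMI1 at 0.43 ± 0.18 (SE; adjusted p = 0.277), all with edgeR. RNF2, with 38.1% GC, stood at 0.13 ± 0.17 (SE), whereas PCGF3, with 47.5% GC, kept a value of 0.50 ± 0.15 (SE). EED and EZH2 then lay further below WT, at −0.57 ± 0.20 (SE) and −0.43 ± 0.16 (SE).

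**Figure D4:**
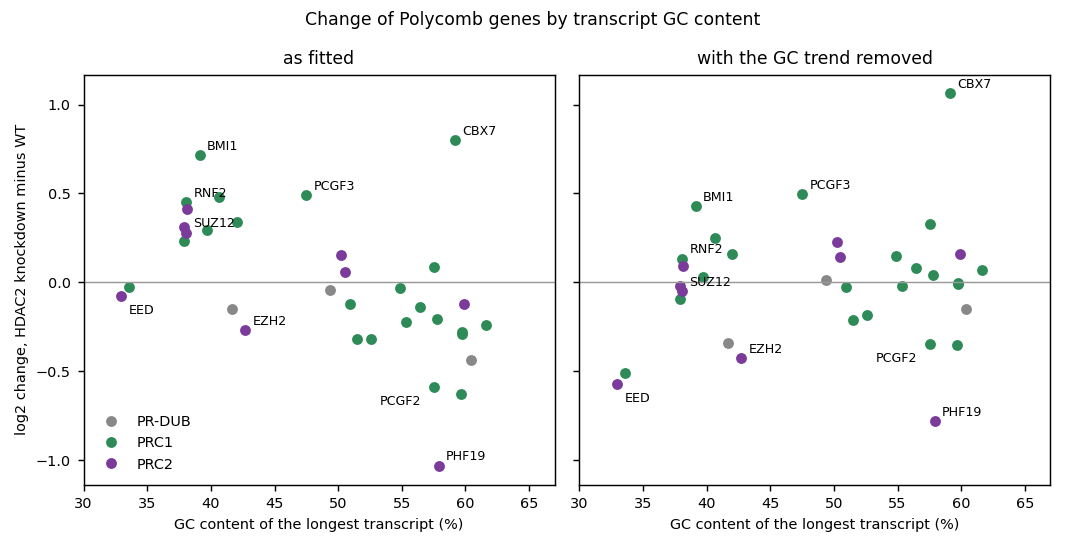
The log2 change of the 34 Polycomb genes in HDAC2 knockdown minus WT against the GC content (%) of the longest transcript, as fitted (left) and with the GC trend over all genes removed (right). Points are genes, coloured by complex. PHF19 is at −1.03 on the left and −0.78 on the right, and BMI1 at 0.72 and 0.43.

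Genes of partner proteins of these complexes outside the list mostly did not pass the test. Of 41 fixed, 40 were found and 33 tested, of which 2 fell and 0 rose. For the other 31 the test was not passed. The share called was 6.06%, near the background of 7.72% over all genes. The median over the 33 was −0.01 on the log2 scale. HCFC1, a host cell factor bound by BAP1, had 99.8 and 91.2 CPM with shRNA 1 and shRNA 2, against 154.1 CPM in WT, or −0.69 ± 0.17 on the log2 scale (SE; edgeR adjusted p = 0.0155). Both libraries were below WT, as for BAP1 and for 53.4% of all tested genes with a GC content of at least 45%. The GC content is 61.5% in HCFC1 and 60.4% in BAP1. With the GC trend removed HCFC1 stood at −0.39 ± 0.14 (SE) and BAP1 at −0.15 ± 0.15 (SE). SAMD11 had 10 and 18 counts, against 47 counts in WT, at −1.93 ± 0.50 (SE). The histone chaperones RBBP4 and RBBP7, which sit in PRC2 and in HDAC2 complexes alike, stood at −0.13 ± 0.17 (SE) and −0.30 ± 0.17 (SE).

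Of 11 genes listed as opposing Polycomb marks, 1 rose and 0 fell, a share of 9.09%, near the background of 7.72% over all genes. KDM5A and KDM5B are in that list although they remove methyl groups from lysine 4, a mark of active genes. Their action is thus not the reversal of a Polycomb mark. KDM5B had 124.8 and 117.5 CPM, against 78.6 CPM in WT, or 0.62 ± 0.18 on the log2 scale (SE; edgeR adjusted p = 0.0343). The demethylases of lysine 27, KDM6A and KDM6B, stood at 0.08 ± 0.18 (SE) and 0.23 ± 0.22 (SE). The H2A deubiquitinases USP16 and MYSM1 stood at 0.32 ± 0.19 (SE) and 0.47 ± 0.17 (SE). USP21, another H2A deubiquitinase of that list, lay on the other side of WT, at −0.56 ± 0.20 (SE; edgeR adjusted p = 0.0881).

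Genes known as Polycomb targets outside the HOX clusters mostly had too few counts to be tested or did not pass. Of 71 such genes, 36 had too few counts to be tested, 17 of them with 0 counts in each library. Of the 35 tested, 2 rose and 0 fell. The other 33 did not pass, and the median was −0.10. Over the 35 the share called was 5.71%, against the background of 7.72%.

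CCND2, the gene of cyclin D2, had 212.4 and 122.7 CPM with shRNA 1 and shRNA 2, against 60.4 CPM in WT, or 1.47 ± 0.25 on the log2 scale (SE; edgeR adjusted p = 0.00116). FOXC1, a forkhead factor, had 26.7 and 19.5 CPM, against 11.1 CPM in WT, at 1.05 ± 0.25 (SE; edgeR adjusted p = 0.0123). Both hairpin libraries were above WT for both genes, shRNA 1 more so. With the GC trend removed, FOXC1 passed again, at 1.27 ± 0.23 (SE), whereas CCND2 (edgeR adjusted p = 0.0586), KDM5B, HCFC1 and SAMD11 did not. With DESeq2's Wald test FOXC1 (adjusted p = 0.136), CCND2 (adjusted p = 0.243) and KDM5B (adjusted p = 0.105) lost their calls, HCFC1 passed (adjusted p = 0.0468), and SAMD11 had no adjusted p. With no filter on low counts none of the 5 passed with edgeR (adjusted p = 0.468 for each).

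The cell cycle inhibitors repressed by Polycomb went to opposite sides. CDKN2B had 30 and 32 counts with shRNA 1 and shRNA 2, against 9 counts in WT, at 1.58 ± 0.60 (SE; edgeR adjusted p = 0.110). CDKN2A had 116 and 108 counts, against 144 counts in WT, at −0.55 ± 0.23 (SE; edgeR adjusted p = 0.155). PIK3IP1, an EZH2 target in ARID1A-mutated cells, had 67 and 52 counts, against 25 counts in WT. None of these 3 genes passed over all genes.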

How the data were processed

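The labels' protocols name Trizol extraction, column cleaning with DNase, ScriptSeq complete Gold libraries and 75 bp reads on a NextSeq instrument. The values the authors deposited are estimated counts for each Ensembl gene, all of them whole numbers. RSEM 1.2.3, edgeR and hg19 are named in the submitters' processing notes, without their roles, and RSEM divides reads that fit several genes by a model. No source used here states the use of strand.

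Counts were fitted over all genes with edgeR 4.0.16 (R 4.3.3), using TMM scaling, filterByExpr, the quasi-likelihood test and Benjamini-Hochberg adjustment with a threshold of 0.05. The fit had 1 residual degree of freedom and a prior of 18.9. Standard errors (SE) come from the estimate and its F statistic. CPM values are TMM-scaled, and the change of a single hairpin is a difference of log2 CPM (prior count 2), without a test. Counts of this comparison (14524 genes) were simulated at the trended dispersion, without a spread of each gene's own and without a GC trend. On them the test recovered 20.9% of 1.5-fold, 58.2% of 2-fold and 81.8% of 4-fold changes and called 6 unchanged genes. Most 1.5-fold changes thus stayed undetected in the simulation. The rates in the data can differ, as the simulation left out those sources of spread. A count of 3, the limit that a count of 0 allows, equals 0.263 to 0.296 CPM, for counting error only.

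GENCODE 29 (GRCh38) gave positions, lengths, GC content and shared 75-base sequences, with PCGF2 matched by name. Length is that of the longest transcript, so levels per kilobase are approximate. The table itself gives no coordinates. A gene was called uncertain where at least 20% of its sequences were shared. The GC trend was a spline with 5 degrees of freedom per library, known for 97.9% of tested genes.

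Members and lists were chosen with earlier results of these data known, and no p was adjusted over a list. Described in full were genes past the threshold or with an unadjusted p below 0.05, EZH2, EED, SUZ12, RING1, RNF2, BMI1, and the largest rise and fall. Of the partner, opposing and target lists, called genes were named, with CDKN2A, CDKN2B and PIK3IP1. Outside that rule, KDM6A, KDM6B, USP16, MYSM1, USP21, RBBP4 and RBBP7 were named for their role, after their values were seen. EPOP and PECAM1 were not analysed here. The values of a further marker are not reported here. Alternatives were DESeq2 1.42.0 size factors and Wald test, library size alone, upper quartile scaling, no filter, a mean count of at least 50, edgeR's likelihood ratio test, the GC trend removed and each hairpin alone. Summing rows that share reads was added after seeing the data.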

Additional observations from a re-analysis of the deposited data

How the results depend on the processing

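The 3 Polycomb calls held with DESeq2 size factors, library size alone, upper quartile scaling, a mean count of at least 50 and edgeR's likelihood ratio test. With no filter 0 of 34 passed, as did 0 of 23698 genes by edgeR's quasi-likelihood test, although 2486 genes and 4 of the list had an unadjusted p below 0.05. With DESeq2's Wald test 1 of 34 and 306 of 14524 genes passed. With the GC trend removed 0 and 283 passed (109 higher and 174 lower, against 575 and 546). With shared rows summed 2 of 34 and 1162 of 14521 genes passed. Of the partner, opposing and target genes 5 passed, and 0 with no filter, 1 with DESeq2's Wald test and 1 with the GC trend removed. The median of the list was 0.0045 with the GC trend removed, against −0.060, and −0.084 to −0.011 with either hairpin alone. Counts of calls have no value with 1 hairpin against 1 WT library, which leaves no residual degrees of freedom.

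Over the 9 alternatives that keep all libraries PHF19 ranged from −1.05 to −0.78, PCGF2 from −0.60 to −0.35 and BMI1 from 0.43 to 0.75. With 1 hairpin alone PHF19 was −1.14 to −0.93, PCGF2 −0.66 to −0.52 and BMI1 0.52 to 0.88. Signs of 9 uncalled genes turned with the GC trend removed, namely RING1 (0.069), KDM2B (0.039), BCORL1 (0.080), PHF1 (0.16), ASXL1 (0.011), L3MBTL2 (0.15), PHC3 (−0.094), SUZ12 (−0.050) and MTF2 (−0.019). With library size alone L3MBTL2 (5.94e-05) and PCGF5 (0.010) turned. The prior degrees of freedom were 1.92 with no filter, 7.67 with the GC trend removed, 12.7 to 37.5 in the other alternatives by the quasi-likelihood test and 18.9 as reported; their part in the lost calls was not tested, nor was another cause. No paired analysis was possible because the WT group has 1 library, so the groups share at most 1 replicate number. Depth limits CBX7 and CBX2 most.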
